A study of Mus musculus with 10 samples.

Results

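The phosphoethanolamine genes described here were 8 of the 22046 genes in the expression table: Etnppl, Phospho1, Etnk1, Etnk2, Pcyt2, Pisd, Cept1 and Pemt, matched by gene symbol. They were chosen by the ribosome footprints of Etnppl and Phospho1, which were lower in mice that lack the clock factor BMAL1. The footprint values of those 2 genes, and their translational efficiencies, which contain the footprints, therefore chose the set and are given as a description without a test. The study compared the cerebellum of Bmal1-/- mice (knockout) with that of Bmal1+/+ littermates (wild type), both on a C57BL/6 background and bred from heterozygous parents. The tissue was whole cerebellum, a mixture of cell types, and the mutation was not limited to any of them. The age, sex and hour of dissection of these animals are not given in the sources used here. Part of each cerebellar lysate was digested with RNase I to leave the RNA fragments held by ribosomes (footprints), and the remainder was kept as total RNA. Of the 10 libraries 8 were analysed, the footprints and the total RNA of 2 knockouts (animals 1 and 3) and of 2 wild types (animals 2 and 3). Total RNA libraries of knockout 2 and wild type 1 were not analysed here. Values are RPKM, reads scaled to gene length and library depth, and translational efficiency is the footprint RPKM over the total RNA RPKM of an animal.

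Phosphoethanolamine is an intermediate in the making of phosphatidylethanolamine, a major phospholipid of brain membranes. Ethanolamine kinases (ETNK1 and ETNK2) form it, the cytidylyl transferase PCYT2 activates it to CDP-ethanolamine, and CEPT1 joins that to a diacylglycerol. PISD makes phosphatidylethanolamine by another route, from phosphatidylserine in mitochondria, and PEMT, known chiefly from liver, methylates it to phosphatidylcholine. A pair of enzymes remove phosphoethanolamine instead. ETNPPL is a phospholyase dependent on pyridoxal phosphate that splits it into acetaldehyde, ammonia and phosphate, and in the brain it is known as an astrocyte gene. PHOSPHO1 is a phosphatase of phosphoethanolamine and phosphocholine, best known from mineralizing bone.

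BMAL1 binds DNA together with CLOCK at E-boxes, with the letters CACGTG. The 250 bases before the RefSeq start of each of the 2 degrading genes (GRCm38.p6, plus strand, 5′ to 3′) are printed for that reason, with any match to a searched motif in capitals. The Etnppl window is chr3:130617198-130617447 and the Phospho1 window is chr11:95824250-95824499.
Etnppl: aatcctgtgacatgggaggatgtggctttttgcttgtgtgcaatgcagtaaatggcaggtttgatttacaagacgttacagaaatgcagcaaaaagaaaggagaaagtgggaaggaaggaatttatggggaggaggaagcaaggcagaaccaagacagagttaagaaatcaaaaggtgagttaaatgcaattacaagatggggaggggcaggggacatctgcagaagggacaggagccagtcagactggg
Phospho1: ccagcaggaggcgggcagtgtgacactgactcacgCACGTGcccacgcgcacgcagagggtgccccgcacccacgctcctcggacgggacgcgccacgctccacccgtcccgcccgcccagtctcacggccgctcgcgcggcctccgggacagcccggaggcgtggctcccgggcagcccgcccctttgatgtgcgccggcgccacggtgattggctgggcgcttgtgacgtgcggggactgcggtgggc
The capitals in the Phospho1 window mark an E-box at positions -215 to -210 relative to the start. CACGTG was present in 6.0% of 32851 such RefSeq windows. The Etnppl window above and that of another annotated start of the gene held none of the motifs searched on both strands. These were CACGTG, the E-box variant CACGTT (in 3.8% of windows), the D-boxes TTATGTAA and TTACGTAA (0.9%), the nuclear receptor motif AGGTCA (14.0%) and the glucocorticoid response motif AGAACA (16.1%). The Phospho1 window had a GC content of 75.6% and the Etnppl window of 46.0%, against a median of 52.4% over all windows. Of the 8 genes 7 had a window, and those of Etnk1, Etnk2 and Pemt held no match. That of Pisd held CACGTT at -67 to -62, and those of Cept1 held AACGTG, which is CACGTT on the other strand, and AGAACA. A match to these letters does not show binding.

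Recovered reads came to between 27681101 and 40981507 in the footprint libraries and between 25586304 and 43192328 in the total RNA libraries. Arntl, the gene that encodes BMAL1, was at 124 and 107 RPKM in the knockout footprints and at 258 and 295 RPKM in those of the wild type. In total RNA Arntl was at 267 and 272 RPKM in the knockout and at 179 RPKM in both wild types, so the knockout was lower in the footprints and higher in the RNA. In total RNA 519 of 12690 genes tested passed the threshold used throughout, a Benjamini-Hochberg adjusted p under 0.05 in limma on log2(RPKM + 1). That is 4.09% of them, and 1.61% were lower in the knockout. Arntl passed in total RNA (log2 fold change 0.59, adjusted p = 0.0158 by limma) and not in footprints (-1.25, adjusted p = 0.0589 by limma). Under the alternative settings described below, its RNA call was lost in 3 and its footprints passed in 3. All p-values rest on 2 animals per genotype, with variances moderated over all genes. Those for efficiency treat the footprint and total RNA libraries of an animal as independent, unless the animal is named as a block. RPKM were not compared between genes, because in the same library 1 RPKM stood for 5.22 reads of Phospho1 and for 629 reads of Pemt, genes with 2029 and 2104 annotated exonic bases. Ratios of RPKM between libraries of a gene do not depend on that scale. The log2 fold changes on RPKM + 1 and the minimum of 1 RPKM for a test do. Such fold changes are drawn towards no change in genes of low RPKM.

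Etnppl RNA fell in the knockout to 13.8% of the wild-type mean, and no other of the 7 genes tested in total RNA passed the threshold. Etnppl (ENSMUSG00000019232) lies on the plus strand of chromosome 3 from 130617448 to 130637521 in mm10, with 6 annotated transcripts. Its total RNA was at 3.71 RPKM (456 reads) in knockout 1 and 5.44 RPKM (744 reads) in knockout 3. The wild types were at 32.6 RPKM (2698 reads) and 33.6 RPKM (2976 reads). The 2 genotypes did not overlap, and the lower wild type was several times above the higher knockout. The log2 fold change of Etnppl was -2.63 (SE 0.16, 95% interval -3.03 to -2.24), and limma gave an adjusted p of 0.00232. The total RNA came from the same lysates as the footprints by which Etnppl was chosen, so it is another measurement of the same 4 animals. The call was lost when genes of low RPKM were kept in the fit (adjusted p = 0.0539 by limma) and held with each animal left out in turn (0.00223 to 0.0106).

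The footprints of Etnppl were lower by a like amount. They were at 9.19 and 9.91 RPKM (1104 and 882 reads) in the knockouts and at 61.7 and 62.6 RPKM (6874 and 5067 reads) in the wild types. The knockout mean was 9.55 ± 0.511 RPKM (SD, n = 2) and the wild-type mean 62.2 ± 0.626 RPKM (SD, n = 2). The knockout mean was thus 15.4% of the wild-type mean, and the log2 fold change was -2.58, against a pooled SD of 0.0505 between animals. Since the RNA and the footprints were lower together, the ratio between them hardly moved. The translational efficiency of Etnppl in the authors' deposited table was 2.48 and 1.82 in the knockouts and 1.89 and 1.86 in the wild types. Knockout 1 was the highest, and knockout 3 the lowest, of the 4 animals. The log2 difference in efficiency was 0.05, smaller than the pooled SD of 0.177.

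**Figure D1:**
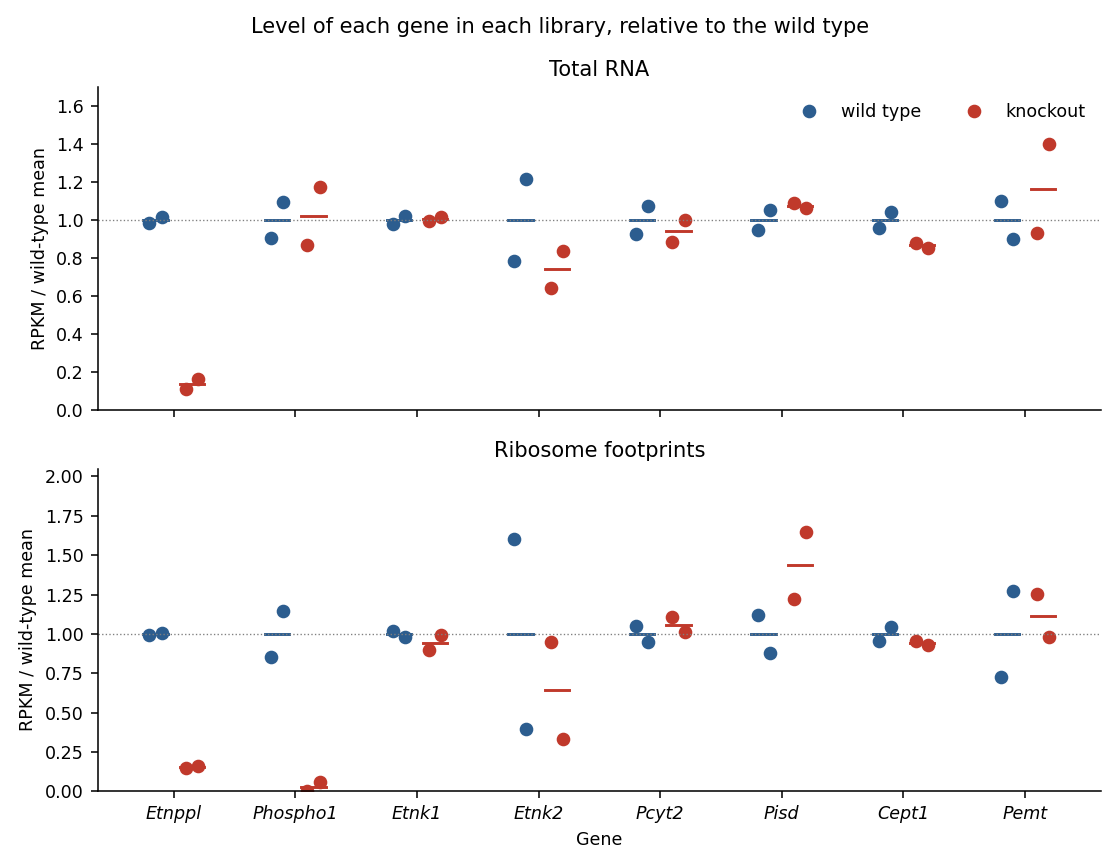
RPKM of each of the 8 genes in each library, divided by the mean of the 2 wild types, in total RNA (top) and footprints (bottom). Each point is a library and each short line the mean of a genotype. Etnppl is low in the knockout in both panels and Phospho1 in the footprints, where the knockout means are 15.4% and 2.81% of the wild type.

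Etnppl is known as an astrocyte gene, so the astrocyte and Bergmann glia markers are given beside it. All 20 markers were tested in total RNA. Fabp7, a fatty acid binding protein, rose (log2 fold change 3.76), while Glul (glutamine synthetase, -0.70), S100b (-0.65) and the gap junction gene Gjb6 (-0.72) fell. Without 1 or more of the 4 animals the calls of Glul, S100b and Gjb6 were lost (adjusted p up to 0.0948, 0.116 and 0.223 by limma), and that of Fabp7 was kept. The median of the 20 was 0.01, against -0.02 over all genes tested. Their summed level in total RNA was 11176 and 11169 RPM (reads scaled to the library total as in RPKM, but not to gene length) in the knockouts and 10982 and 10618 in the wild types. Without Fabp7, left out after its value was seen, the sums were 10436 and 10414 in the knockouts and 10926 and 10568 in the wild types. In total RNA both knockouts were thus above both wild types with Fabp7 and below them without it. In the footprints the sums over all 20 were 17462 and 17803 in the knockouts and 15423 and 15197 in the wild types. Without Fabp7 they were 15185 and 15881 in the knockouts and 15300 and 15091 in the wild types. No marker of the 20 was at 0. In a whole-tissue sample fewer cells of a type and less RNA per cell cannot be told apart, and the part of either in the Etnppl result was not tested.

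Phospho1 RNA did not differ detectably between the genotypes, while hardly any Phospho1 footprints were counted in the knockout. Phospho1 (ENSMUSG00000050860) lies on the plus strand of chromosome 11 from 95824499 to 95832140 in mm10, with 3 annotated transcripts and 843 coding bases. Its total RNA was at 23.2 and 31.3 RPKM (121 and 182 reads) in the knockouts and at 24.2 and 29.3 RPKM (85 and 110 reads) in the wild types. The knockout values enclosed those of the wild type. The log2 fold change in total RNA was 0.02 (SE 0.17, 95% interval -0.39 to 0.43), with an adjusted p of 0.966 by limma. At these depths a difference of up to about 0.4 on the log2 scale in either direction lies within the interval.

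The footprints of Phospho1 were at 0 and 0.529 RPKM in knockouts 1 and 3 and at 8.03 and 10.8 RPKM in wild types 2 and 3. These were 0 and 2 reads in the knockouts and 38 and 37 reads in the wild types, so the difference rests on few reads. Both wild types were above both knockouts. Pooled over animals, 2 of 71079208 knockout reads and 75 of 65735518 wild-type reads fell on the gene, a 40.5-fold lower frequency with a 95% exact binomial interval of 10.8 to 341. That interval describes the counting error of these libraries, not the spread between animals, and is no test, since the gene was chosen on these reads. The count of 0 in knockout 1 allows up to 0.0732 RPM. On the log2(RPKM + 1) scale, which understates the change of a low gene, the fold change was -3.06, with a pooled SD of 0.361. The efficiency of Phospho1 in the authors' deposited table was 0 and 0.0169 in the knockouts against 0.332 and 0.368 in the wild types, and the log2 difference was -3.08. Even in the wild type few footprints were counted on the gene for the RNA counted there. Reads of the overlapping genes described below could be part of either count. The geometric mean of the 2 wild-type ratios was 0.35, at percentile 9.5 among 12695 genes with at least 20 reads in each wild-type library, whose median ratio was 0.955, while that of Etnppl was 1.88, at percentile 85.5.

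**Figure D2:**
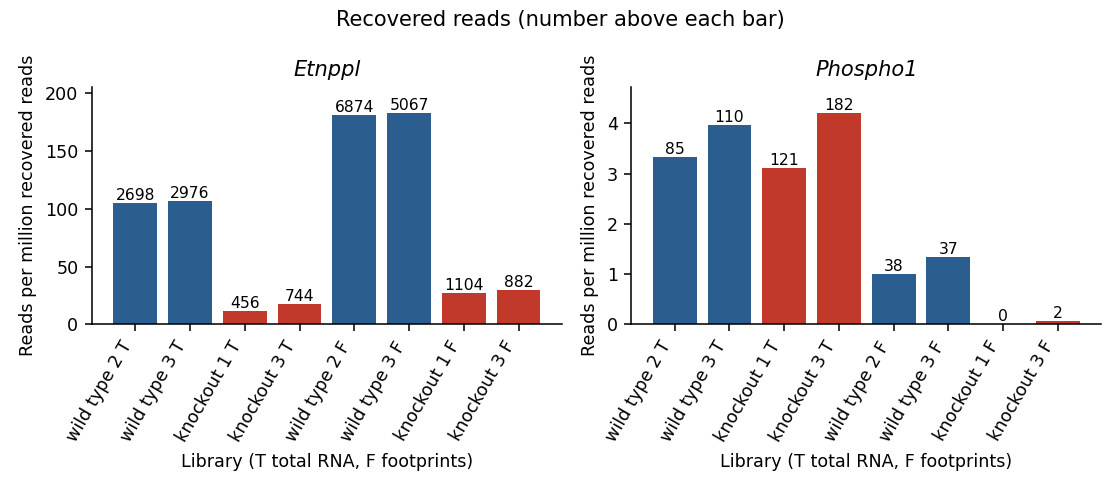
Recovered reads of Etnppl (left) and Phospho1 (right) in each of the 8 libraries, scaled to library totals, with the number of reads above each bar. Blue bars are wild type and red bars knockout, T is total RNA and F footprints. Etnppl rests on 456 to 6874 reads a library, and Phospho1 footprints on 0 and 2 reads in the knockout against 38 and 37.

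The Phospho1 values carry a limit of annotation. In GENCODE M21 the exons of Zfp652, a zinc finger gene on the same strand (chromosome 11, 95712673 to 95835115), cover 89.6% of the 2029 exonic bases of Phospho1 and 100.0% of its coding bases. Exons of Abi3, a gene on the opposite strand (95830074 to 95842476) that encodes an actin regulator known from microglia, cover 84.2% and 94.7%. How reads shared between genes were assigned, and whether strand was used, is not given in the sources used here, so Phospho1 reads cannot be told apart from reads of these neighbours. The neighbours had their own values. Zfp652 was at 18.7 and 16.0 RPKM in the knockout total RNA and at 12.97 and 13.48 in the wild type (log2 fold change 0.36, SE 0.11, adjusted p = 0.146 by limma and 0.00881 by limma-voom). In footprints its log2 fold change was 0.24 (adjusted p = 0.858 by limma). The wild-type means of Zfp652 were 13.2 RPKM in total RNA and 1.31 RPKM in footprints. Abi3 had 41 and 23 reads in the knockout total RNA against 23 and 24 in the wild type, and 77 and 22 reads in the knockout footprints against 80 and 32. Its log2 fold changes were -0.17 in total RNA and -0.38 in footprints (adjusted p = 0.742 and 0.890 by limma).

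**Figure D3:**
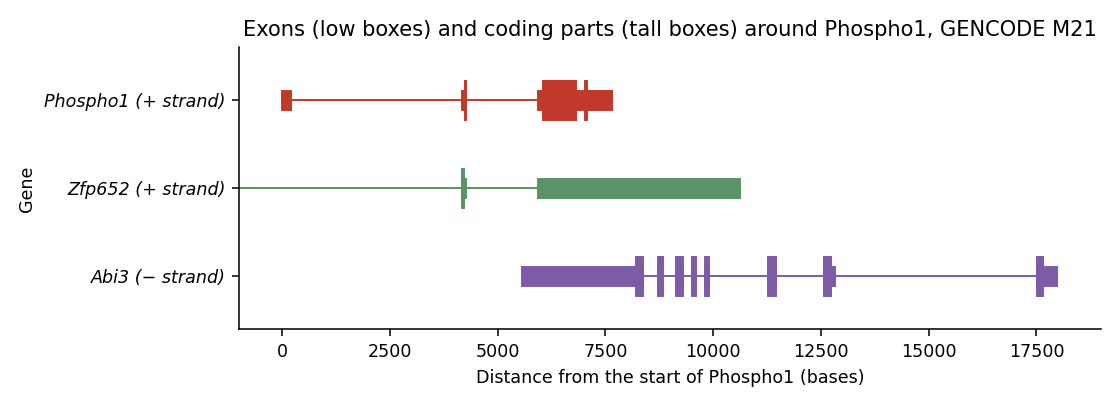
Annotated exons (low boxes) and coding parts (tall boxes) of Phospho1, Zfp652 and Abi3, by distance in bases from the start of Phospho1, with lines for introns. The coding part of Phospho1 lies wholly within exons of Zfp652, and 94.7% of it within exons of Abi3.

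Bone and muscle markers are given beside Phospho1, since the gene is known from mineralizing tissue. Of 6 bone markers, 4 were tested in total RNA. By limma 0 passed, also at an unadjusted p under 0.05, where 22.1% of all genes did. Col1a1 was higher by limma-voom (0.39), which called 12.2% of all genes. The summed level of the 4 with recovered reads was 81.5 and 71.0 RPM in the knockouts and 59.5 and 70.6 in the wild types. In footprints the bone sums were 140.6 and 156.9 in the knockouts and 140.7 and 157.7 in the wild types. Of 6 skeletal muscle markers 3 were tested, and Tcap, a sarcomere protein gene, fell (-2.61). Over the 3 with recovered reads, which do not include Tcap, the sums were 3.7 and 4.2 RPM in the knockouts and 3.3 and 2.8 in the wild types. In footprints the sums of the same 3 were 5.8 and 5.3 in the knockouts and 3.4 and 4.2 in the wild types.

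The 2 ethanolamine kinase genes showed no detectable difference. Etnk1 (ENSMUSG00000030275, chromosome 6, 143167221 to 143232307) was at 1737 and 1772 RPKM in the knockout total RNA and at 1710 and 1784 in the wild type. Its log2 fold change was 0.01 (SE 0.07, 95% interval -0.16 to 0.17, adjusted p = 0.972 by limma). In footprints Etnk1 was at 1019 and 1132 RPKM in the knockout and at 1160 and 1118 in the wild type (-0.08, 95% interval -0.35 to 0.18, adjusted p = 0.892 by limma). Its intervals were among the narrowest of the set. Etnk2 (ENSMUSG00000070644, chromosome 1, 133363572 to 133380336), known mainly from liver and reproductive tissue, had few reads. Its total RNA was at 1.85 and 2.40 RPKM in the knockouts and at 2.25 and 3.49 in the wild types (-0.29, 95% interval -0.77 to 0.18, adjusted p = 0.431 by limma). The footprints of Etnk2 separated the libraries by another line than genotype. They numbered 46 in knockout 1 and 72 in wild type 2, but 12 in knockout 3 and 13 in wild type 3. Their mean RPKM was under 1, so they were not tested by limma, and limma-voom on the reads gave -0.53 (SE 0.94, adjusted p = 0.919). The log2 difference of the other animal from animal 3 was compared between the genotypes over 12089 genes. It correlated at r = 0.0874 in footprints and 0.0175 in total RNA.

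Genes of the next steps varied little with genotype. Pcyt2 (ENSMUSG00000025137, chromosome 11, 120610087 to 120617936) was at 8.48 and 9.63 RPKM in the knockout total RNA and at 8.89 and 10.3 in the wild type (-0.08, 95% interval -0.38 to 0.23, adjusted p = 0.763 by limma). In footprints Pcyt2 was at 15.2 and 13.9 RPKM in the knockout and at 14.43 and 12.99 in the wild type (0.08, adjusted p = 0.933 by limma). The groups overlapped in both. Cept1 (ENSMUSG00000040774, chromosome 3, 106502260 to 106547802) was at 102.6 and 99.5 RPKM in the knockout total RNA, below the 111.7 and 121.2 of the wild type. The difference of -0.20 (SE 0.09, 95% interval -0.42 to 0.01) did not pass (adjusted p = 0.247 by limma). Its footprints overlapped, at 154.0 and 150.0 RPKM in the knockout and 153.9 and 168.9 in the wild type (-0.08, adjusted p = 0.904 by limma).

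Pisd, of the mitochondrial route, had the largest positive footprint difference of the 6 genes tested there. Pisd (ENSMUSG00000023452, chromosome 5, 32736301 to 32785646) was at 3.82 and 5.16 RPKM (155 and 155 reads) in the knockout footprints and at 3.51 and 2.75 RPKM (132 and 75 reads) in the wild type. Both knockouts were above both wild types, yet the log2 difference of 0.41 (SE 0.23, 95% interval -0.17 to 0.98) did not pass (adjusted p = 0.657 by limma). In total RNA Pisd was at 10.2 and 9.93 RPKM in the knockout and at 8.84 and 9.85 in the wild type (0.10, adjusted p = 0.647 by limma). Another coding gene model on the same strand, Gm20671, has exons over 80.2% of the coding bases of Pisd, so these reads are uncertain too. The overlap differs in kind from that of Phospho1. Pisd shares 1153 coding bases with the coding part of Gm20671, while Phospho1 shares 0 with the coding parts of Zfp652 and Abi3. Pemt (ENSMUSG00000000301, chromosome 11, 59970614 to 60046489) was at 0.062 and 0.093 RPKM in the knockout total RNA and at 0.0732 and 0.0597 in the wild type, on 27 to 65 reads. It was tested on reads only, by limma-voom, which gave 0.18 (adjusted p = 0.833) in total RNA and 0.29 (adjusted p = 0.94) in footprints, with SEs of 0.44 and 0.65.

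Counted over the set, 1 of the 7 genes tested in total RNA passed, Etnppl, against 4.09% of all genes, and none of the others did. Etnppl was chosen on footprints of the same lysates, so this count is not independent of the choice. In footprints 29 of 12447 genes passed, or 0.233%. Etnppl and Phospho1 were chosen on those values and are not counted, and none of the other 4 members tested passed. In efficiency 2 of 12089 genes passed, or 0.0165%. Etnppl and Phospho1 are left out there too, and none of the other 4 members tested passed. At an unadjusted p under 0.05, 550 genes passed in efficiency, and limma-voom called 1 gene (0.00724%), no member. Groups did not overlap in total RNA for 3 of 7 members (Etnppl and Cept1 lower, Pisd higher), against 55.0% of all genes. Leaving out Etnppl and Phospho1, it held in footprints for 1 of 4 members (Pisd), against 39.7%, and in efficiency for 1 of 4 (Cept1), against 31.7%. For Etnk1, Pcyt2, Pisd and Cept1 the log2 differences in efficiency were -0.09, 0.15, 0.31 and 0.12 (adjusted p = 0.997 for each by limma). Their 95% intervals reached from -0.36 to 0.18, -0.29 to 0.59, -0.24 to 0.86 and -0.20 to 0.43. The wild-type ratio of footprints to total RNA was 0.652 for Etnk1, 1.43 for Pcyt2, 0.333 for Pisd and 1.39 for Cept1.

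**Figure D4:**
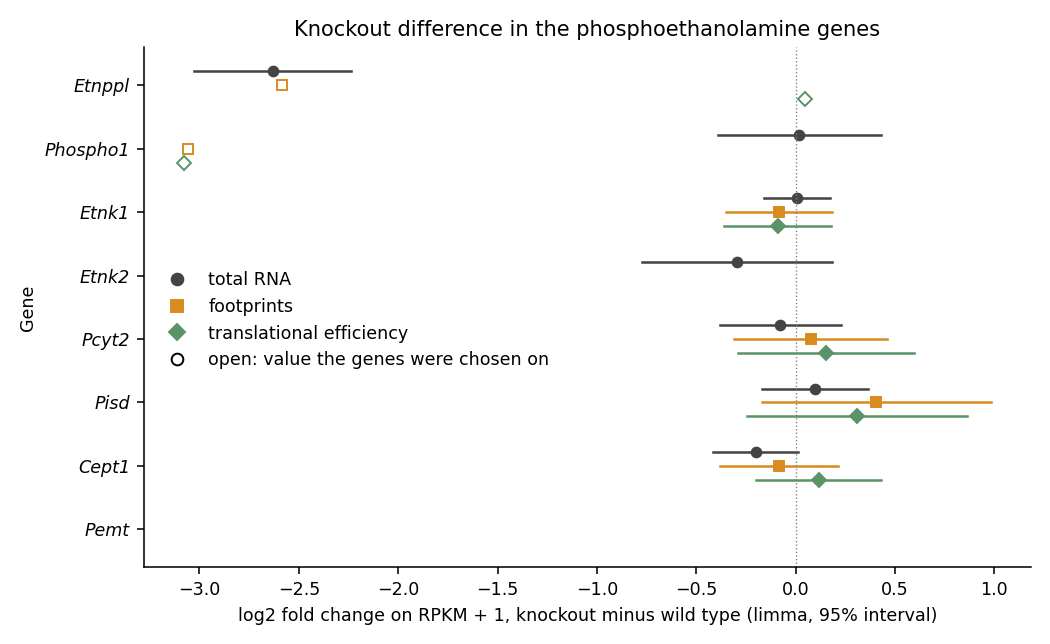
Log2 fold change, knockout minus wild type, on log2(RPKM + 1) for total RNA, footprints and translational efficiency, with 95% limma intervals as lines. Open symbols without a line are the values by which Etnppl and Phospho1 were chosen. Pemt, and the footprints and efficiency of Etnk2, were below the RPKM minimum and are not plotted. Etnppl stands at -2.63 and -2.58 in RNA and footprints and near 0 in efficiency, and Phospho1 near 0 in RNA and at -3.06 and -3.08 in the other 2.

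The wider pathway was described from 9 lists with 51 genes, of which 50 were in the table. In total RNA 44 were tested, and 2 were higher in the knockout and 1 lower, while 4.09% of all genes passed in either direction. The median log2 fold change was -0.01 against -0.02 over all genes. At an unadjusted p under 0.05 there were 12 of 44, against 22.1% of all genes. In footprints none of 42 passed by limma, against 0.233% of all genes. At an unadjusted p under 0.05 there were 4, against 10.4% of all genes, and the median was -0.06 against -0.03. In efficiency none of 42 passed, against 0.0165%. There 2 were at an unadjusted p under 0.05, against 4.55%, and the median was -0.04 against -0.02. On the recovered reads limma-voom, which called 12.2% of genes in total RNA, called 4 of 45 higher and 4 lower there, and none in footprints, where it called 1.59% of genes, or in efficiency. Slc44a5, of the choline transporter-like family, rose from 8.29 and 8.52 RPKM in the wild types to 17.2 and 19.7 in the knockouts (1.05, SE 0.11, adjusted p = 0.00964 by limma). That call was lost without knockout 3 (adjusted p = 0.0541). Its footprint difference was 0.67 (adjusted p = 0.566 by limma). Pla2g4e, a phospholipase that acts as an N-acyltransferase on phosphatidylethanolamine, rose from 12.5 ± 1.85 to 23.9 ± 0.183 RPKM (SD, n = 2 each, log2 fold change 0.89, adjusted p = 0.0202 by limma). It was not called without either knockout (adjusted p up to 0.111). Chpt1, the cholinephosphotransferase that completes the choline branch, fell from 22.5 and 20.8 RPKM in the wild types to 13.2 and 14.7 in the knockouts (-0.60, SE 0.11, adjusted p = 0.0412 by limma). It was not called without any 1 of the 4 animals (0.0546 to 0.268). All 3 calls were also lost without a filter on low RPKM, those of Slc44a5 and Chpt1 in 1 fit over all libraries, and that of Chpt1 with quantile normalization and with no variance trend.

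No other listed gene passed by limma, and the values here are log2 fold changes in total RNA unless footprints are named. Selenoi, the ethanolaminephosphotransferase that works beside CEPT1, was at 79.7 and 74.4 RPKM in the knockout total RNA and at 58.4 and 64.1 in the wild type (0.33, adjusted p = 0.127 by limma), and limma-voom called it at 0.31. Of the phosphatidylserine synthases, Ptdss1 was at 0.04 and Ptdss2 at 0.15. On the sphingosine phosphate route, which also ends in phosphoethanolamine, the lyase Sgpl1 was at 0.20 (adjusted p = 0.350) and the kinase Sphk2 at 0.27 (0.140). Of the relatives of the degrading enzymes, Phykpl, a phospholyase of phosphohydroxylysine close to ETNPPL, was at 0.02 in total RNA and 0.35 in footprints (adjusted p = 0.967 and 0.743 by limma). Phospho2, the paralog of Phospho1, was at -0.16 and -0.17 (adjusted p = 0.401 and 0.840 by limma), with 793 to 1402 footprint reads in each library. Of the genes that supply pyridoxal phosphate, the cofactor of ETNPPL, Pdxk was at -0.06. Pigo and Pigb, of the transfer of phosphoethanolamine to GPI anchors, were at 0.32 and 0.44 (adjusted p = 0.164 and 0.207 by limma). Tmem86a and Far1, of plasmalogen turnover and ether lipid synthesis, were at 0.31 and -0.14 (0.220 and 0.328).

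**Figure D5:**
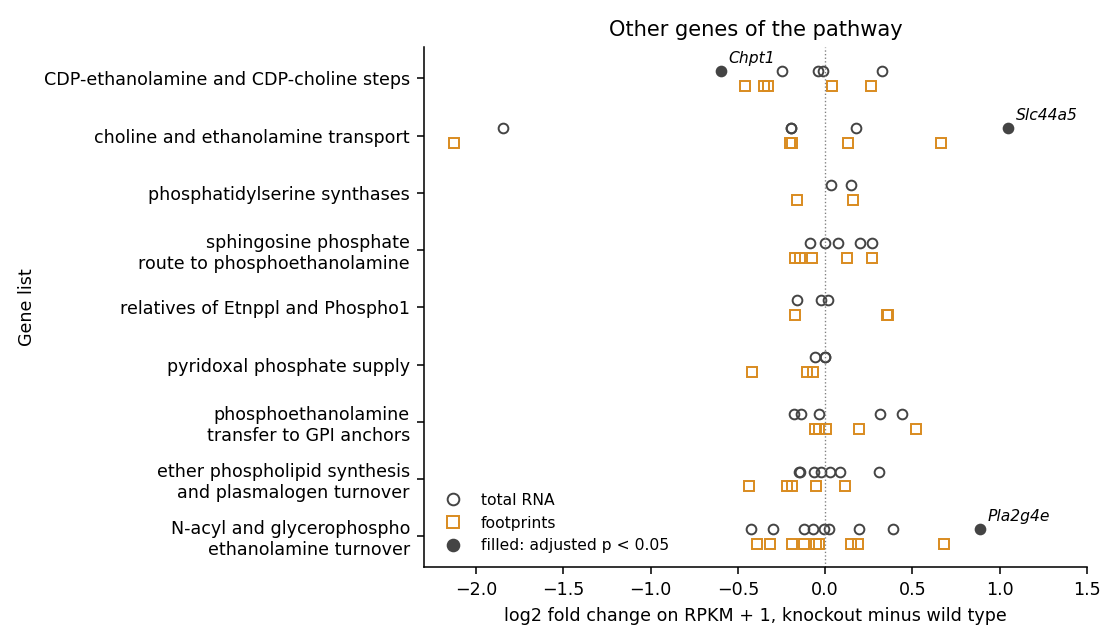
Log2 fold changes, knockout minus wild type, of the other genes of the pathway in total RNA (circles) and footprints (squares), by list. Filled symbols passed an adjusted p under 0.05, which Chpt1 (-0.60), Slc44a5 (1.05) and Pla2g4e (0.89) did, all in total RNA.

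Some markers of other cell types differed between the genotypes as well, and some of the sums also differed widely between the 2 wild types. The part of these markers in the pathway results was not tested. Over all genes 4.09% passed in total RNA by limma. Choroid plexus markers, of which 5 of 7 were tested in total RNA, included Sostdc1 and Prlr as higher. Their sums were 1834 and 2166 RPM in the knockouts and 856.6 and 53.6 in wild types 2 and 3. Of 9 oligodendrocyte markers Mag fell (-0.39), and the sums were 4000 and 3859 in the knockouts and 6096 and 4479 in the wild types. Of 8 granule neuron markers Fat2 and Grin2c rose, with sums of 6891 and 6775 against 5542 and 5887. None of 7 Purkinje cell markers and none of 5 red blood cell markers passed by limma in total RNA. At an unadjusted p under 0.05 there were 2 and 1 of them, against 22.1% of all genes. By limma-voom, which called 12.2% of all genes, Gad1 and Calb1 of the Purkinje markers and Hbb-bt of the blood markers were lower. Of 7 brainstem markers tested, Slc17a6 fell and Tph2 rose. Over the 4 of 8 with recovered reads, which leave out 4 Hox genes, the brainstem sums were 131.8 and 134.0 in the knockouts and 228.6 and 170.9 in the wild types. Slc5a7, the choline transporter of cholinergic neurons, followed wild type 2, with 86.5 RPKM there, 15.6 in wild type 3 and 5.32 and 16.8 in the knockouts.

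The 5 genes with the profile most like that of Etnppl over the 8 libraries were named by rule. Likeness was the mean absolute difference between log2 profiles centred within total RNA and within footprints, over 12088 other genes. They were Nr1d2 (0.18), Sulf1 (0.23), Per3 (0.23), Ciart (0.28) and Nr1d1 (0.31), against a median of 1.29 over all genes. Nr1d1 and Nr1d2 encode the REV-ERB nuclear receptors, Per3 a period protein and Ciart a repressor of CLOCK and BMAL1, while Sulf1 encodes a heparan sulfatase. Nr1d2 was at 1.92 and 1.85 RPKM in the knockout total RNA and at 26.5 and 26.8 in the wild type, and in footprints at 1.20 and 1.53 against 14.2 and 13.4. As in Etnppl, its RNA and footprints were both low in both knockouts. Sulf1 was at -2.18 in total RNA and -2.12 in footprints, Per3 at -2.52 and -2.36, Ciart at -1.84 and -2.40 and Nr1d1 at -1.96 and -2.55. With 2 genotypes the likeness mostly restates a knockout difference of like size, and it is given as a description, since it also used the footprints by which Etnppl was chosen.

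The 5 genes most like Phospho1 by the same measure were Rpl13a (0.27), Rnasek (0.27), Gm35315 (0.29), Slc22a7 (0.33) and Zim1 (0.38), against a median of 0.84. Rpl13a, a ribosomal protein gene with near-identical copies elsewhere that make its counts uncertain, was at 219 and 251 RPKM in the knockout total RNA against 266 and 271. Its footprints were at 3.88 and 2.91 RPKM against 20.2 and 21.4. Rnasek, which encodes a ribonuclease, was at 9.72 and 7.21 RPKM in the knockout total RNA against 7.59 and 7.58. Its footprints were listed at 0 in both knockouts and at 3.76 and 7.51 RPKM in the wild types. Gm35315 was likewise listed at 0 in both knockout footprint libraries, and its total RNA was lower as well, at 4.37 and 2.94 RPKM in the knockouts against 5.51 and 6.07. For Slc22a7, an organic anion transporter gene, and Zim1, an imprinted zinc finger gene, the log2 fold changes were 0.15 and -0.37 in total RNA and -2.24 and -1.94 in footprints. Here too the likeness used the footprints by which Phospho1 was chosen. It mostly restates a knockout difference in footprints of like size, and is given as a description.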

How the data were processed

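Ribosome footprints and total RNA of the same cerebellar lysates were sequenced from knockout animals 1 and 3 and wild types 2 and 3. The authors deposited RPKM per gene and library, a mean read count per gene, and the ratio of footprint to total RNA RPKM, per the file headers. The ratio equalled the quotient of the RPKM within 2% in 100.0% of 57408 values above 0.05 RPKM. Bowtie, STAR, Cufflinks and the mm10 build are named, per the submitters' processing notes; their roles and settings are not given in the sources used here. Reads were recovered from the RPKM steps and the mean read count, which proved to be a geometric mean over the 8 libraries. Among 416 genes averaging under 20 reads, 100.0% of their 3328 values lay within 0.1 of a whole number (20.4% if the mean were arithmetic), and 13880 genes were recovered. Phospho1, whose mean is 0 because of a 0 in knockout 1, was recovered as the smallest whole numbers that fit its steps. Any whole multiple would fit too, if all of its counts shared that factor.

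The 2 genotypes were compared on log2(RPKM + 1) by limma (version 3.58.1, R 4.3.3), two-sided, its variances moderated towards a trend on the mean. Genes averaging 1 RPKM or more in the libraries compared entered, and p-values were adjusted over all of them by Benjamini-Hochberg. For efficiency the tested term was genotype by library kind, with no term for the animal in the main fit. The code was tested on simulated data. Alternatives were a pseudocount of 0.1, no filter, a mean read count of at least 100, quantile normalization, no trend, limma-voom on recovered reads (mean of at least 10), each animal left out, 1 fit over all libraries, and the animal as a block. Named were all members, their closest relatives, the genes of each list past the threshold or at most the 2 with the smallest p, and the 5 most alike. The members and lists were chosen with earlier results of these data known. Whether footprints and total RNA of an animal deviate together was checked over 12089 genes (r = -0.00401 between the knockouts and 0.259 between the wild types). Positions are from GENCODE M21, in which 21951 of 22046 gene IDs were found, and promoter windows from RefSeq. The libraries of a group differed by more than sampling noise (chi-square over its degrees of freedom 12.6 to 40.8).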

Additional observations from a re-analysis of the deposited data

How the results depend on the processing

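The fall of Etnppl RNA kept its direction under each alternative and was called under each but one, the fit without a filter (-2.63, adjusted p = 0.0539 by limma); with each animal left out it ranged from -2.86 to -2.40. Phospho1 RNA stayed near 0 and changed sign with limma-voom (-0.0008), and ranged from -0.19 to 0.23 with an animal left out. In footprints a pseudocount of 0.1 and limma-voom gave -2.69 and -2.70 for Etnppl and -5.23 and -5.17 for Phospho1; without an animal they ranged from -2.63 to -2.53 and from -3.37 to -2.75. The Phospho1 efficiency was -5.25 and -5.17 under those settings, -2.98 to -3.17 without an animal, and -3.08 with the animal as a replicate block, the pairing for efficiency, since an animal's 2 libraries share a lysate. That of Etnppl ranged from -0.13 to 0.22.

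The number of genes called moved most. In total RNA (519) it was 26 without a filter, 798 at 100 reads, 1676 with limma-voom, 217 in 1 fit, and 117 to 563 without an animal. In footprints (29) it was 17 with a pseudocount of 0.1, 1 without a filter, 57 at 100 reads, 219 with limma-voom, 315 in 1 fit, and 1 to 6 without an animal. In efficiency (2) it was 5, 4, 0 and 0 with a pseudocount of 0.1, no filter, quantile normalization and no trend, 1 with limma-voom, 1 with the replicate block, and 0 without any animal. The cause was not tested. Values near 0 changed sign: Etnk1 RNA with quantile normalization (-0.027) and limma-voom (-0.016), and, with an animal left out, Etnk1 RNA (-0.024 to 0.037), Pcyt2 RNA (-0.17 to 0.021) and efficiency (-0.015 to 0.32), Phykpl RNA (-0.13 to 0.17), Abi3 RNA (-0.59 to 0.25) and footprints (-0.999 to 0.24), and Phospho2 footprints (-0.37 to 0.019). No paired analysis was possible for total RNA or footprints because the genotypes share only the number 3. Depth limits Phospho1, Etnk2, Pemt and Abi3, with under 200 reads a library.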
